A study of Mus musculus with 57 samples.

Results

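The comparison of the zygote with the MII oocyte covers fertilization in the mouse, from the mature egg held at the second meiotic metaphase to the 1-cell embryo. Of the 59119 rows of the deposited expression table, 13131 reached 1 FPKM (sequenced fragments per length of transcript and per number of fragments mapped) in at least 2 of the 4 libraries of these 2 stages, and these rows are described here. The zygotes came from MII oocytes fertilized in vitro with sperm of BDF1 males. Eggs and zygotes are both labelled as wild type of strain C57BL/6, a label that does not mention the BDF1 father, and the eggs themselves as MII. No injection is listed for either stage, and the labels state no hour for the zygotes. The protocol states about 150 to 200 embryos per sample, so each library is a pool. Each stage has 2 libraries of total RNA from which ribosomal RNA had been removed, zygote replicates 1 and 2 and MII replicates 1 and 2. Nothing in the labels says that they came from separate collections, so the spread between libraries of a stage may be technical. The p-values rest on that spread within all 8 stages fitted, not on these 4 libraries alone. Of the rows, 11097 reached 1 FPKM in all 4 libraries, 238 entered through the zygote libraries alone and 161 through the MII libraries alone. Urb2 lay just inside the limit, with 1 and 0.79 FPKM in zygotes and 1.213 and 0.954 FPKM in MII oocytes, and XLOC_026808 just outside it, its second highest value being a fraction under 1 FPKM.

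The growing oocyte stores large amounts of RNA and then stops transcription, so the mature egg and the young zygote live on maternal RNA that is translated, held back or degraded. Transcription of the embryonic genome begins weakly in the zygote, and its main wave follows in the 2-cell embryo. Because total RNA was sequenced, a longer or shorter poly(A) tail does not by itself add or remove a transcript, unlike in libraries selected for tails. FPKM is relative to the RNA of each library: less RNA of one gene per embryo and more of all others cannot be told apart, nor can fewer cells and less RNA per cell.

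Marker genes were looked up in the 4 libraries, and those shown in this paragraph do not separate zygotes from MII oocytes. Other oocyte markers, described below, did differ. Zp2 was called lower, Mos was lower in both zygote libraries without passing, and Npm2 was low in zygote replicate 1. The oocyte genes Gdf9 (1266 and 652 FPKM in zygotes, 815 and 814 FPKM in MII oocytes), Bmp15 and H1foo were abundant in both stages. Of 49 genes of the 2-cell embryo 12 reached the limit. Zfp352, a gene of the main activation wave, was listed at 0 in all 4 libraries. Zscan4c had 1.64 and 0.62 FPKM in zygotes and 1.29 and 1.24 FPKM in MII oocytes. Of 36 marker genes of the cumulus and granulosa cells that surround the egg, 5 reached the limit and limma called 0 (0 also at p under 0.05 before adjustment). Their summed level was 35.3 and 38.5 FPKM in zygotes and 30.6 and 35.5 FPKM in MII oocytes. Means of the 5 ran up to 19.1 FPKM in zygotes and 15.2 FPKM in MII oocytes. Cyp19a1, 1 of the 5, had 6.56 and 8.05 FPKM in zygotes and 6.02 and 5.9 FPKM in MII oocytes. Foxl2, under the limit, was at or below 0.0183 FPKM in all 4 libraries. Of 40 sperm and testis genes, 4 reached the limit and limma called 0 (0 also at p under 0.05 before adjustment). Their sum was 30.2 and 98.3 FPKM in zygotes and 92.5 and 84.3 FPKM in MII oocytes. The 4 that reached the limit were Akap12, Odf2, Prm2 and Ldhc. Akap12 had 16.2 and 65.7 FPKM in zygotes and 59.3 and 55.6 FPKM in MII oocytes. For the protamine gene Prm2 these were 1.35 and 6.77 FPKM and 7.6 and 4.69 FPKM, whereas Tnp2 was listed at 0 in all 4 libraries.

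Zygote replicate 1 stood apart from the other libraries. Pearson's r of log2(FPKM + 0.5) over the 13131 rows was 0.913 between the zygote libraries, 0.890 and 0.9 between zygote replicate 1 and the MII libraries, and 0.957 and 0.958 between zygote replicate 2 and the MII libraries. The MII libraries correlated at 0.964 with each other. Rows of small and structural RNA held 42.4% and 32.9% of all FPKM in zygotes and 24.5% and 27.6% in MII oocytes. Remnants of ribosomal RNA differed too: AY036118, which overlaps the ribosomal RNA row CT010467.1 on chromosome 17, had 34847 and 702 FPKM in zygotes and 599 and 359 FPKM in MII oocytes. Long coding transcripts were lower in zygote replicate 1, with a median log2 difference from the MII mean of -0.35 for the longest genes by exon length (1886 of the coding genes) and 0.05 for the shortest (1887); in zygote replicate 2 these were -0.02 and -0.01.

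Column names carry a tag, b1 for zygote replicate 2 and MII replicate 1, b2 for zygote replicate 1 and b3 for MII replicate 2. What the tag records is not given. The mitochondrial ribosomal RNA mt-Rnr2 followed it, with 9407 and 400 FPKM in zygotes and 289 and 14055 FPKM in MII oocytes: the b1 libraries were the low ones. The fit was therefore repeated with the tag as a batch term, which leaves zygote replicate 2 against MII replicate 1 for the size of a change and takes the spread from the other stages, and without zygote replicate 1. Where a call of a gene described below was lost in either fit, that p is given beside it. Rows listed at the end for a peak in a separate time course carry no such p. Read counts are not given, so depth is unknown. The spacing of the lowest FPKM values put zygote replicate 1 at 0.79 and 0.76 and zygote replicate 2 at 0.92 and 0.88 of the depth of MII replicates 1 and 2.

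Of the 13131 rows, 708 (5.39%) passed limma at a Benjamini-Hochberg adjusted p under 0.05, with 325 (2.48%) higher and 383 (2.92%) lower in zygotes. The fit covered 19692 rows and 16 columns of 8 stages, of which 740 rows (3.76%) were called. Changes are log2 differences of zygote minus MII on the log2(FPKM + 0.5) scale, given ± SE with n = 2 libraries per stage, and they understate the change of low rows. Rows that entered through 1 stage alone had to differ: 72 of the 238 that entered through zygotes were called higher and 45 of the 161 that entered through MII oocytes lower. Among the other 12732 rows 253 (1.99%) were higher and 338 (2.65%) lower. The median change was 0.86 among rows called higher and -0.95 among rows called lower. With the tag as a batch term 1021 rows (7.78%) were called, 377 (2.87%) higher and 644 (4.9%) lower, and 135 and 259 of the rows called above were among them. Without zygote replicate 1 557 rows (4.24%) were called, 169 (1.29%) higher and 388 (2.95%) lower, with 111 and 224 shared. The spread is borrowed from all 8 stages: a fit of the 4 libraries alone called 0 rows, with 1307 of all rows tested at an unadjusted p under 0.05. Left out singly, MII replicate 1 lowered the count to 374 and zygote replicate 2 raised it to 4743. Scaling by the median of ratios shifted all changes by 0.12 and gave 396 higher and 270 lower rows.

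**Figure D1:**
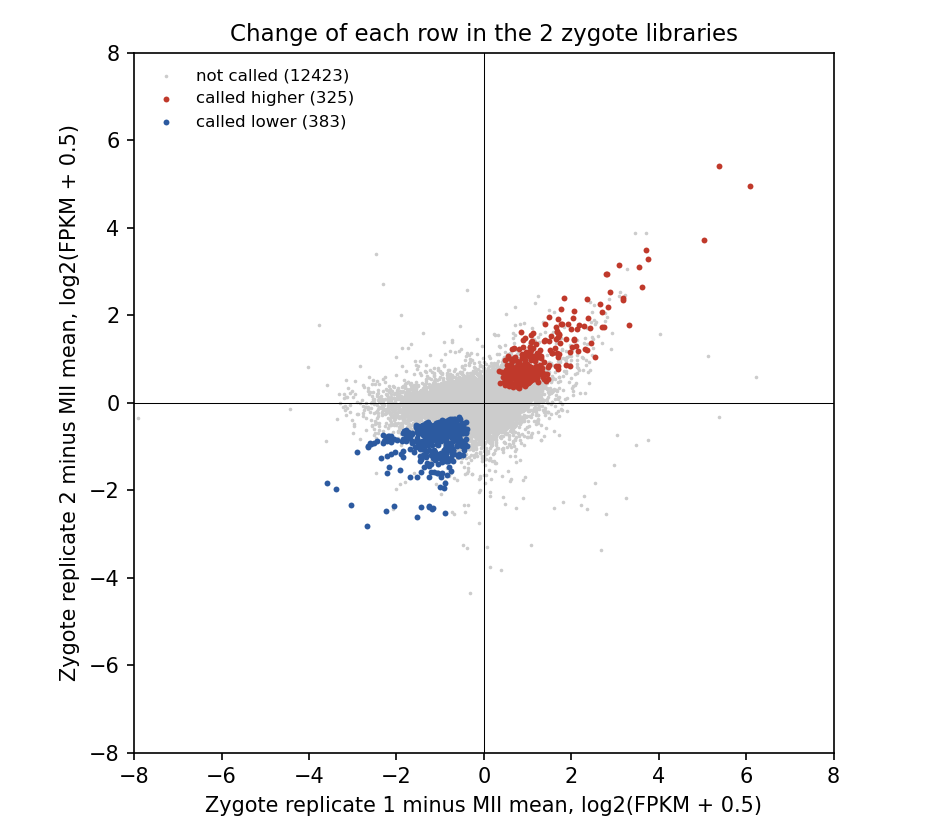
Difference of each zygote library from the MII mean, on the log2(FPKM + 0.5) scale, for 13131 rows: zygote replicate 1 on the horizontal axis, zygote replicate 2 on the vertical, with the 325 rows called higher in red and the 383 called lower in blue. The cloud is wider along replicate 1, and both axes share the MII mean, so the diagonal trend is in part built in.

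The clearest group among the fallers was the cytosolic ribosomal protein genes, whose products form the small (40S) and large (60S) subunits of the ribosome. Of 84 genes, 32 fell (38.1%, against 2.92% of all rows) and 1 rose, with a median change of -0.64 against -0.00 over all rows. Both subunits took part, with 12 of 34 genes of the 40S and 20 of 50 of the 60S subunit lower. Both zygote values lay below both MII values in 56 of 84, against 18% of all rows. The median was -0.60 in zygote replicate 1, -0.55 in zygote replicate 2 and -0.70 between the b1 libraries. Ribosomal protein transcripts are short. The 1822 other coding genes in the shortest 20% by exon length had a median of -0.00, with 48 higher and 75 lower. Over all rows 2.48% were higher and 2.92% lower. These genes were not matched in length to the ribosomal protein genes, and the part of length in the fall was not tested.

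Rps29 (ENSMUSG00000034892.8, GRCm38 chromosome 12, 69157722 to 69159186, minus strand), of the small subunit, had 30 and 26.3 FPKM in zygotes, against 76.5 and 67.9 FPKM in MII oocytes. It fell by 1.34 on the log2 scale (SE 0.13, limma adjusted p = 0.00063), and the stages did not overlap. Rpl5, a large-subunit protein that binds 5S ribosomal RNA, had 22 and 27.9 FPKM in zygotes, against 62.2 and 55.4 FPKM in MII oocytes (-1.23 ± 0.13, adjusted p = 0.00099). Rpl27 had 10.8 and 9.99 FPKM in zygotes, against 26.1 and 23.5 FPKM in MII oocytes. Rps2, at the messenger RNA entry side of the small subunit, had 14.6 and 24.3 FPKM in zygotes, against 57.6 and 54 FPKM in MII oocytes (-1.54 ± 0.19, adjusted p = 0.0027). These 4 genes also passed with the tag as a batch term and without zygote replicate 1, at changes of -1.06 to -1.52.

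The remaining ribosomal protein genes were not uniform. Rplp1, of the stalk of the large subunit, had 58 and 33 FPKM in zygotes and 111 and 98 FPKM in MII oocytes, and was named after its values were seen. Rpl37 showed how zygote replicate 1 could drive a value, with 3.75 and 28.2 FPKM in zygotes and 61.3 and 43.9 FPKM in MII oocytes. It did not pass (adjusted p = 0.069), but did so with the tag as a batch term (-1.1, adjusted p = 0.00065). The single riser, Rps27l, is a paralogue of Rps27 known as a p53 target. It had 60.4 and 43.1 FPKM in zygotes, against 22.8 and 32.8 FPKM in MII oocytes (0.89 ± 0.19, adjusted p = 0.032; 0.64, adjusted p = 0.098 without zygote replicate 1). Many ribosomal protein genes have processed pseudogenes, and how the authors' counting split shared reads is not given. The count of 32 was 45 with the tag as a batch term, 36 without zygote replicate 1 and 11 without MII replicate 1.

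Genes of energy production moved the same way, less widely. Of 78 nuclear genes for the respiratory chain and ATP synthase, 15 fell (19.2%, against 2.92% of all rows) and 1 rose, with a median of -0.29. Of these 78, 1 entered through the MII libraries alone, and it fell. Complex I, which takes electrons from NADH, held 10 of the 15 among its 37 genes (27%), and its median was -0.57. ATP synthase gave 3 of 16, complexes III and IV 1 each of 8 and 13, and complex II 0 of 4. Ndufa9, an accessory subunit of complex I (chromosome 6, 126821721 to 126849136), had 2.37 and 9.15 FPKM in zygotes, against 39.5 and 29.1 FPKM in MII oocytes. Its fall of 2.71 (SE 0.40, adjusted p = 0.0067) was the largest among annotated rows that were called, and it was -1.83 without zygote replicate 1 (adjusted p = 0.00054).

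Uqcr11, a small subunit of complex III, had 6.9 and 10.7 FPKM in zygotes, against 39 and 29.5 FPKM in MII oocytes (-1.92 ± 0.20, adjusted p = 0.0011). Ndufs1, the iron-sulfur subunit through which electrons enter complex I, had 2.03 and 2.74 FPKM in zygotes, against 5.53 and 4.67 FPKM in MII oocytes. Atp5o, in the stalk that holds ATP synthase together, had 4.82 and 4.72 FPKM in zygotes, against 12.2 and 9.83 FPKM in MII oocytes. The stages did not overlap in any of these. The count of 15 was 19 with the tag as a batch term, 14 without zygote replicate 1, 7 without MII replicate 1 and 28 without zygote replicate 2.

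The protein genes of the mitochondrial genome did not fall with their nuclear partners. All 13 had a positive change, from 0.60 to 1.32, but limma called 0 of them (6 higher at an unadjusted p under 0.05). Both zygote values exceeded both MII values in 4 of the 13, against 22.2% of all rows. For mt-Co1, the catalytic subunit of complex IV, the levels were 748 and 409 FPKM in zygotes and 345 and 386 FPKM in MII oocytes. With the tag as a batch term 5 of the 13 were called higher. Of 74 genes for proteins of the mitochondrial ribosome 4 fell (5.41%) and 2 rose (2.7%), against 2.92% and 2.48% of all rows. Mrpl22 fell most firmly, with 15.5 and 19.3 FPKM in zygotes, against 39.8 and 42.1 FPKM in MII oocytes (-1.22 ± 0.11, adjusted p = 0.00063).

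The machinery that starts translation and that removes proteins gave smaller counts. Of 45 translation initiation genes 6 fell (13.3%, against 2.92% of all rows) and limma called 0 higher, with 3 higher at an unadjusted p under 0.05; with the tag as a batch term 7 were lower and 3 higher. Eif3l, a subunit of the factor that loads the small ribosomal subunit, had 10.5 and 14.1 FPKM in zygotes, against 34.7 and 25.4 FPKM in MII oocytes (-1.25 ± 0.19, adjusted p = 0.0079). The other 5 were Eif3g, Eif4a3, Eif3f (adjusted p = 0.1 with the tag as a batch term), Eif4g3 (0.055 with it) and Eif3d (0.0984 without zygote replicate 1). Of 41 genes listed by symbol as proteasome genes 4 fell (9.76%, against 2.92% of all rows). Among them Psma5, of the outer ring of the core particle, had 11.3 and 24.7 FPKM in zygotes, against 67.1 and 53.6 FPKM in MII oocytes (-1.81 ± 0.28, adjusted p = 0.0075). The others were Psma3, Psmb1 and the base ATPase Psmc3. The list also held Psmc3ip, which is not a proteasome subunit and was not called, and it left out Sem1, described below. The count of 4 was 14 with the tag as a batch term.

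**Figure D2:**
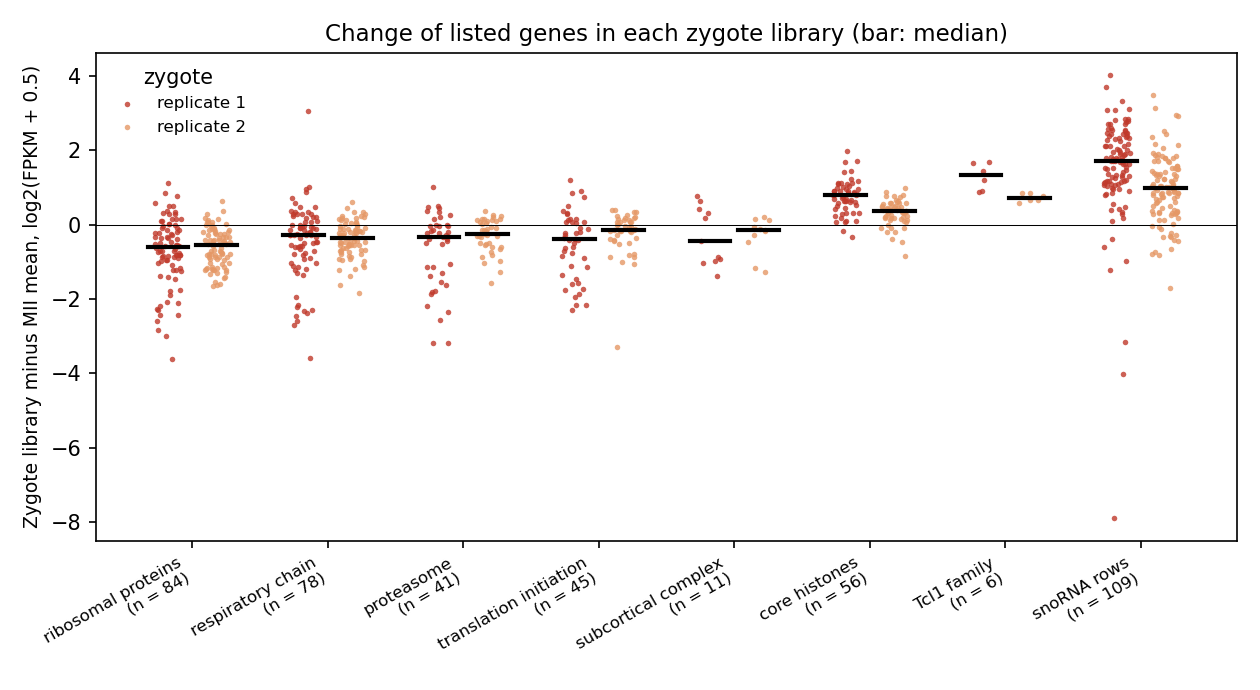
Difference of each zygote library from the MII mean, on the log2(FPKM + 0.5) scale, for the genes of 8 lists: each point is a gene, dark red for zygote replicate 1 and orange for replicate 2, with a black bar at the median. Ribosomal protein genes sit below 0 in both libraries, snoRNA rows above it, and replicate 1 spreads more widely in most lists.

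Some transcripts that define the egg fell as well. Of 14 genes of the egg coat, gamete fusion and egg activation, 2 fell (14.3%, against 2.92% of all rows). Both zygote values lay below both MII values in 6 of the 14, against 18% of all rows. The 2 falls became 5 with the tag as a batch term and 1 without zygote replicate 1. Plat, tissue plasminogen activator, whose stored messenger RNA is a classic case of translation awakened in the maturing oocyte, had 217 and 180 FPKM in zygotes, against 438 and 433 FPKM in MII oocytes (-1.14 ± 0.13, adjusted p = 0.0024). Zp2, the coat protein cut after fertilization, had 164 and 167 FPKM in zygotes, against 351 and 254 FPKM in MII oocytes (-0.85 ± 0.16, adjusted p = 0.022; adjusted p = 0.051 without zygote replicate 1). Its partner Zp1 had 186 and 157 FPKM in zygotes, against 334 and 247 FPKM in MII oocytes, and missed the threshold (adjusted p = 0.065), but not with the tag as a batch term (adjusted p = 0.04).

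The subcortical maternal complex is a protein assembly under the egg's surface that the embryo needs for its first cleavages. Of its 11 genes 3 fell (27.3%, against 2.92% of all rows). Khdc3 had 20.5 and 17.2 FPKM in zygotes, against 42.9 and 41.3 FPKM in MII oocytes (-1.14 ± 0.13, adjusted p = 0.0014). Nlrp2 had 39.1 and 34.5 FPKM in zygotes, against 88 and 68.2 FPKM in MII oocytes (-1.07 ± 0.16, adjusted p = 0.007). Tle6 had 168 and 220 FPKM in zygotes, against 331 and 281 FPKM in MII oocytes (adjusted p = 0.039), and missed the threshold without zygote replicate 1 (adjusted p = 0.12). The median of the list was -0.35.

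Regulators of maternal RNA gave 1 call per list, 3.45% and 4.17% of the genes and near the 2.92% of all rows. Of 29 decay genes Upf1, the helicase of nonsense-mediated decay, fell, with 35.5 and 43.9 FPKM in zygotes and 62.4 and 120 FPKM in MII oocytes (adjusted p = 0.032; 0.053 with the tag as a batch term and 0.11 without zygote replicate 1). Btg4, an adaptor of the deadenylase that clears maternal RNA, had 804 and 716 FPKM in zygotes and 445 and 629 FPKM in MII oocytes, and did not pass (adjusted p = 0.13). Of 24 storage and translational control genes Lsm14b fell, with 297 and 466 FPKM in zygotes and 599 and 682 FPKM in MII oocytes (adjusted p = 0.045; 0.17 with the tag as a batch term and 0.097 without zygote replicate 1).

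Of 45 genes of meiotic arrest and the cell cycle 1 rose (2.22%) and 2 fell (4.44%), near the 2.48% and 2.92% of all rows. Bub1b, a kinase of the spindle checkpoint, had 270 and 280 FPKM in zygotes, against 500 and 449 FPKM in MII oocytes (-0.78 ± 0.13, adjusted p = 0.011), and Bub1, its partner kinase, had 26.1 and 25.5 FPKM in zygotes, against 38.3 and 36.5 FPKM in MII oocytes. Ccnb1, cyclin B1, rose, with 257 and 203 FPKM in zygotes and 137 and 160 FPKM in MII oocytes (0.62 ± 0.14, adjusted p = 0.042; 0.091 without zygote replicate 1). Mos, the kinase that keeps the egg arrested in metaphase, had 122 and 59.6 FPKM in zygotes and 189 and 205 FPKM in MII oocytes. It did not pass (adjusted p = 0.073), but did with the tag as a batch term (-1.66, adjusted p = 0.046). In chromatin reprogramming 1 of 42 genes fell (2.38%) and in DNA replication 2 of 44 (4.55%), again near 2.92%. Cabin1, a subunit of the HIRA histone chaperone complex, lost its call with the tag as a batch term (adjusted p = 0.17) and without zygote replicate 1 (0.089). Pold1 and Tyms, which serve DNA synthesis, lost theirs without zygote replicate 1 (adjusted p = 0.059 and 0.09).

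Npm2, the histone chaperone that remodels sperm chromatin, shows the reach of zygote replicate 1: it had 35.7 and 713 FPKM in zygotes and 953 and 650 FPKM in MII oocytes, and was not called (adjusted p = 0.2).

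**Figure D3:**
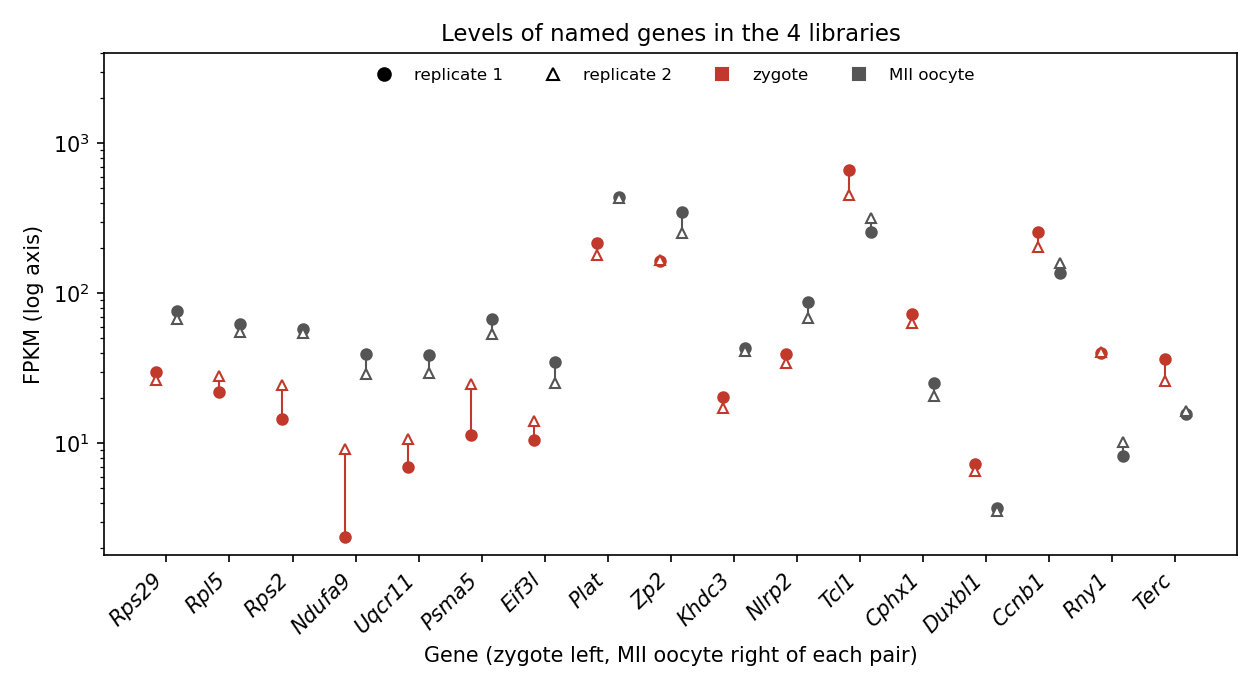
FPKM on a log axis for 17 named genes, with zygotes in red on the left and MII oocytes in grey on the right of each pair, circles for replicate 1 and open triangles for replicate 2. The stages do not overlap in any of these genes, and the zygote libraries lie furthest apart for Ndufa9, at 2.37 and 9.15 FPKM.

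The largest falls came from genes of varied function. March7, a membrane-associated ubiquitin ligase, had 2.76 and 4.86 FPKM in zygotes, against 25.1 and 27.7 FPKM in MII oocytes (-2.69 ± 0.20, adjusted p = 0.00013). Sem1, a small subunit of the proteasome lid that also binds Brca2, had 1.04 and 3.59 FPKM in zygotes, against 17.4 and 13.7 FPKM in MII oocytes (-2.67 ± 0.33, adjusted p = 0.003). Leo1, of the Paf1 complex that travels with RNA polymerase II, had 1.38 and 5.96 FPKM in zygotes, against 14.1 and 13.1 FPKM in MII oocytes. Lamb1, a laminin chain, had 30.5 and 97.4 FPKM in zygotes, against 203 and 184 FPKM in MII oocytes.

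These genes also passed with the tag as a batch term, March7 at -2.26, Sem1 at -2.13, Leo1 at -1.18 and Lamb1 at -1.06. The rule for the largest falls further gave Cpne1, Uqcr11, Zfp296, Fkbp2 (adjusted p = 0.0502 without zygote replicate 1), Dynlt1b and Ndufa9. Cpne1 overlaps Rbm12 on the same strand, and Dynlt1b has near-identical copies, so their values are uncertain. Of 210 zinc finger genes named Zfp 8 fell (3.81%, near the 2.92% of all rows) and 1 rose.

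Coding genes gave 160 rises, and 8 of them came from the Tcl1 and Cphx families. All 6 genes of the Tcl1 family, a cluster on chromosome 12 expressed in oocytes and early embryos, were higher in both zygotes than in both MII libraries, and 5 passed. Over all rows 22.2% had both zygote values above both MII values, and 2.48% passed as higher. Tcl1, a coactivator of the kinase Akt, had 664 and 455 FPKM in zygotes, against 258 and 316 FPKM in MII oocytes (0.94 ± 0.20, adjusted p = 0.03; 0.056 with the tag as a batch term and 0.097 without zygote replicate 1). The summed level of the family was 1492 and 1082 FPKM in zygotes and 598 and 723 FPKM in MII oocytes. With the tag as a batch term 2 of the 6 passed, and without zygote replicate 1 only Tcl1b3 (adjusted p = 0.05, just under the threshold). The copies are closely related and may share reads. Of all 37 oocyte growth and transcription factor genes 6 rose (16.2%, against 2.48% of all rows), Oas1d beside the 5 Tcl1 genes, and Fbxw13 fell. The 6 rises became 3 with the tag as a batch term and 1 without zygote replicate 1. Oas1d (adjusted p = 0.084 and 0.0694) and Fbxw13 (0.069 and 0.1) each lost their call in both fits.

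The homeobox genes Cphx1, Cphx2 and Cphx3, named after their values were seen, all rose. Cphx1 (chromosome 14, 25938304 to 25956356) had 72.7 and 63.4 FPKM in zygotes, against 25.4 and 20.6 FPKM in MII oocytes (1.55 ± 0.15, adjusted p = 0.00066). It passed with the tag as a batch term (1.3, adjusted p = 0.0045) and without zygote replicate 1 (1.45, adjusted p = 0.002). Duxbl1, a double homeobox gene, begins downstream of it at 25978577 on the same chromosome and strand. Duxbl1 had 7.27 and 6.56 FPKM in zygotes, against 3.73 and 3.54 FPKM in MII oocytes (0.84 ± 0.12, adjusted p = 0.0064), and was the 1 called gene among the 12 of 49 genes of the 2-cell embryo that reached the limit. Cphx3 lost its call with the tag as a batch term (adjusted p = 0.15) and without zygote replicate 1 (0.063). It overlaps Cphx2 and Duxbl2 in the annotation, so these rows are not independent.

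The 56 core histone rows were called in 0 cases by limma, with 27 higher at an unadjusted p under 0.05, and 44 of them had both zygote values above both MII values, against 22.2% of all rows. Their median change was 0.56, with 0.79 in zygote replicate 1, 0.37 in zygote replicate 2 and 0.23 between the b1 libraries. Hist1h3f, a histone H3 gene, had 1475 and 634 FPKM in zygotes and 504 and 417 FPKM in MII oocytes (adjusted p = 0.11).

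Small and structural RNA rows were called higher more often than any other kind of row with over 100 members. Of 255 such rows 45 rose (17.6%, against 2.48% of all rows) and limma called 0 lower (6 lower at an unadjusted p under 0.05), with a median change of 0.97. Leaving out the 27 that entered through 1 stage alone, 29 of 228 rose (12.7%, against 1.99% of all such rows), with a median of 0.92. The median was 1.29 in zygote replicate 1, 0.80 in zygote replicate 2 and 0.95 between the b1 libraries. With the tag as a batch term 30 were higher and 5 lower. The count of 45 was 19 without zygote replicate 1, 21 without MII replicate 1, 96 without zygote replicate 2 and 25 with no filter on low rows. Small nucleolar RNAs (snoRNAs), which guide chemical modification of ribosomal RNA, made up 26 of the 45, out of 109. Of these 109, 17 entered through zygotes alone, 11 of them called, and 15 of the other 92 rose (16.3%), with a median of 1.17. Spliceosomal small nuclear RNA rows gave 5 of 52, and the Cajal body RNAs (scaRNAs), guides for spliceosomal RNA, 4 of 12. Rows of microRNA genes gave 7 of 66; they count the locus of the hairpin in total RNA, not the mature microRNA.

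Most snoRNAs of mammals are cut from introns of host genes, many of which encode ribosomal proteins. Their classes are named for short sequence boxes: box C/D RNAs guide methylation of ribose, and box H/ACA RNAs guide conversion of uridine to pseudouridine. Below are 4 snoRNAs that rose, chosen after their values were seen, and 2 of them lie within a ribosomal protein gene. Snora31, Snord83b and Snord49b reached the limit through the zygote libraries alone, so they had to be higher there. Sequences are from the GENCODE M21 transcripts of GRCm38 and run from 5′ to 3′. Capitals mark the ACA box near the 3′ end of the Snora RNAs, and the C box TGATGA and the last CTGA (D box) of the Snord RNAs.
Snora64 (chr17:24720772-24720905, plus strand, in Rps2): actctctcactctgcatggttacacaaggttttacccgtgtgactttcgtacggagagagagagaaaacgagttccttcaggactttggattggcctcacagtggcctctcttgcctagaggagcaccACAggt
Snora31 (chr14:75847905-75848034, plus strand, in Tpt1): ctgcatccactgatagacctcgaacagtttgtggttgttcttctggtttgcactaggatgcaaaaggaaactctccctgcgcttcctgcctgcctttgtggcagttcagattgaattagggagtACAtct
Snord83b (chr15:80078498-80078591, minus strand, in Rpl3): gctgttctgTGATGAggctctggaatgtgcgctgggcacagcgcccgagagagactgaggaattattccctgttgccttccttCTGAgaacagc
Snord49b (chr11:62603079-62603150, plus strand, in 2410006H16Rik): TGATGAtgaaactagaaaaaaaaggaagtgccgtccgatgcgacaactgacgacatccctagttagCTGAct

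Both Snora RNAs shown end with ACA and 3 further bases, as did 52.3% of the 109 snoRNA rows and 18.3% of all 1507 snoRNAs annotated. TGATGA together with CTGA in the last 30 bases stood in 32.1% of the 109 and 24.4% of all annotated. Of 57 rows with the ACA ending 19 rose, with a median change of 1.45, and of 35 rows with both C/D motifs 3 rose, with a median of 1.09. Of all 109 snoRNA rows 23.9% rose, against 2.48% of all rows. The 17 snoRNA rows that entered through zygotes alone, 11 of them called, were not taken out of these counts. Whether the ACA and C/D rows differ was not tested.

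In these 4 libraries the snoRNAs and their host genes parted ways. All 1507 snoRNA rows summed to 2730 and 1630 FPKM in zygotes and 1105 and 1118 FPKM in MII oocytes. In a separate time course the sums were 492 and 537 FPKM at 14 hours after fertilization, 923 and 874 FPKM at 17 hours and 903 and 913 FPKM at 20 hours. Late 1-cell controls of an MT2Mm knockout experiment had 1297, 1143 and 1372 FPKM, and early 2-cell embryos 3101 and 3109 FPKM. Of 121 snoRNA and scaRNA rows, 95 lay on the same strand within exactly 1 host gene that also reached the limit, in 73 hosts. The median change of these RNAs was 1.41 and that of their hosts -0.21. In 89 of the 95 pairs the small RNA had the higher change. This was so in 89 pairs for zygote replicate 1, in 83 for zygote replicate 2 and in 80 with the tag as a batch term, where the medians were 1.1 and -0.09. Of the 95, 63 RNAs had both zygote values above both MII values and 1 had both below. In contrast, 10 pairs had a host with both values above and 34 a host with both below. Over all rows, with those that entered through 1 stage alone included, 22.2% had both above and 18% both below. Of the 25 that rose, 0 had a host that rose and 2 had a host that fell. Several RNAs share a host. Of the 95 RNAs, 17 (Snora31, Snord83b and Snord49b among them) reached the limit through the zygote libraries alone and had to be higher there. Without them 72 of 78 pairs had the higher change in the small RNA, with medians of 1.17 for the RNAs and -0.21 for the hosts, 46 of the 78 RNAs had both zygote values above both MII values, and 14 rose.

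Rps2 and Snora64 are the sharpest case. Snora64 had 9.96 and 10.4 FPKM in zygotes, against 1.27 and 0.356 FPKM in MII oocytes (3.12 ± 0.38, adjusted p = 0.0027), while Rps2, described above, fell by 1.54. The rise was 2.62 with the tag as a batch term (adjusted p = 0.021) and 3.15 without zygote replicate 1 (adjusted p = 0.01). Rpl3, a core protein of the large subunit, had 1.77 and 5.17 FPKM in zygotes and 10.3 and 8.53 FPKM in MII oocytes (-1.46, adjusted p = 0.03). Its snoRNA Snord83b had 3.22 and 2.48 FPKM in zygotes and 0.807 and 0.16 FPKM in MII oocytes (1.84, adjusted p = 0.0093; 0.052 with the tag as a batch term).

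Snora31 was listed at 0 in both MII libraries and had 3 and 3.32 FPKM in zygotes (adjusted p = 0.0027), while its host Tpt1, which encodes the abundant translationally controlled tumour protein, had 60.5 and 28.5 FPKM in zygotes and 30.4 and 35.1 FPKM in MII oocytes. Snord49b had 9.33 and 8.01 FPKM in zygotes and 0.629 and 0 FPKM in MII oocytes (3.61 ± 0.57, adjusted p = 0.0091; 0.088 with the tag as a batch term). Its host 2410006H16Rik had 15.2 and 10.4 FPKM in zygotes and 12.1 and 8.35 FPKM in MII oocytes.

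In 61 of the 95 pairs the small RNA lay wholly in an intron, and in the others it touched an exon of some transcript of the host, as Snora64 does. These RNAs are shorter than many sequenced fragments, and how the authors' tools scaled such short rows is not given. Because small RNA also took a larger share of zygote replicate 1, the part of library make-up in the rise was not tested beyond the values above.

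**Figure D4:**
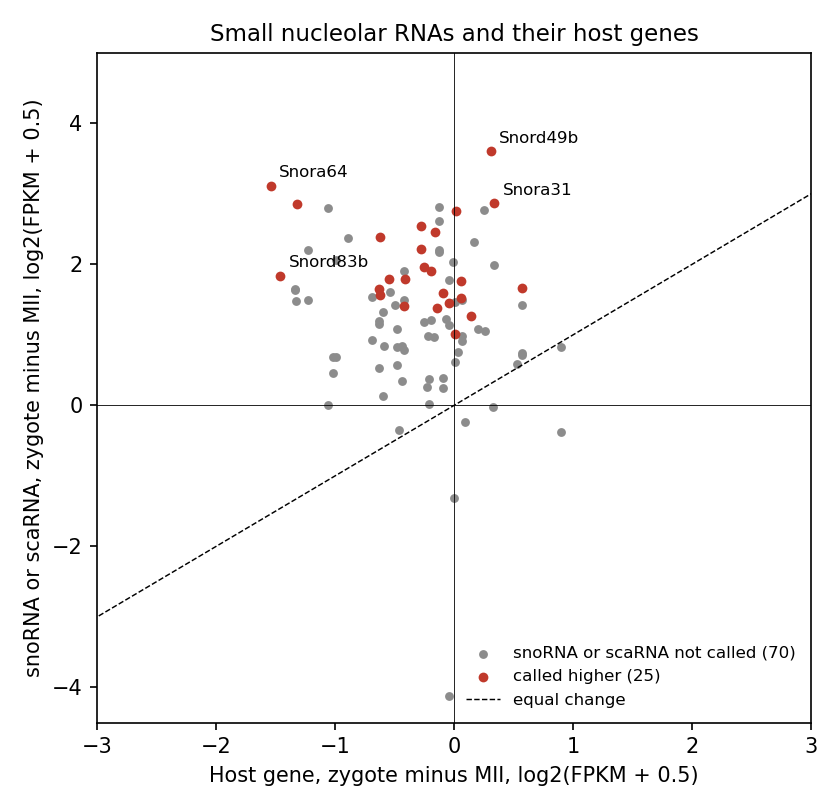
Change of 95 snoRNAs and scaRNAs (vertical axis) against that of the host gene each lies in (horizontal axis), both zygote minus MII on the log2(FPKM + 0.5) scale, with the 25 called higher in red and a dashed line at equal change. In 89 pairs the point lies above the line, and Snora64 and Snord83b lie to the left, with hosts that fell.

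Of 17 listed structural RNAs 3 rose (17.6%, against 2.48% of all rows) and limma called 0 lower (also 0 at p under 0.05 before adjustment). The median change was 1.08, and 12 of the 17 had both zygote values above both MII values, against 22.2% of all rows. The 3 rises became 1 with the tag as a batch term and 0 without zygote replicate 1. Rny1, the Y1 RNA that binds the Ro60 protein and takes part in RNA quality control, had 40 and 40.6 FPKM in zygotes, against 8.2 and 10.2 FPKM in MII oocytes (2.08 ± 0.41, adjusted p = 0.025). It missed the threshold with the tag as a batch term (2.24, adjusted p = 0.097) and without zygote replicate 1 (2.09, adjusted p = 0.071), at changes of similar size. Its sequence is given as that of the largest called rise among the listed structural RNAs.
Rny1 (chr6:47788069-47788180, minus strand): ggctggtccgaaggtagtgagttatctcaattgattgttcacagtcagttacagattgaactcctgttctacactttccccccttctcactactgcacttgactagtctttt

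Terc, the template RNA of telomerase, had 36.5 and 26 FPKM in zygotes, against 15.6 and 16.3 FPKM in MII oocytes (0.93 ± 0.21, adjusted p = 0.038; 0.19 with the tag as a batch term and 0.14 without zygote replicate 1). Scarna2 had 94.8 and 63.1 FPKM in zygotes, against 42.7 and 42.1 FPKM in MII oocytes (adjusted p = 0.048; 0.24 with the tag as a batch term and 0.16 without zygote replicate 1). Rn7sk, which holds the elongation factor P-TEFb inactive, was not called, with 20570 and 11305 FPKM in zygotes and 10862 and 7590 FPKM in MII oocytes.

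The largest single rises by the rule for named genes included predicted genes, small RNAs and 1 enzyme gene. Gm15446, a predicted coding gene on chromosome 5 (109923400 to 109943936), had 18.8 and 13.5 FPKM in zygotes, against 1.02 and 0.837 FPKM in MII oocytes (3.53 ± 0.16, adjusted p = 5.8e-06; 3.20 with the tag as a batch term). Gm46426, a processed pseudogene on chromosome 13, had 16.9 and 6.45 FPKM in zygotes, against 0.0234 and 0.0336 FPKM in MII oocytes (4.38 ± 0.34, adjusted p = 0.00017). This row entered through the zygote libraries alone, so it had to be higher there. Hsd3b7, an enzyme of bile acid synthesis, had 19.3 and 28.7 FPKM in zygotes, against 3.31 and 7.67 FPKM in MII oocytes (2.11 ± 0.42, adjusted p = 0.026). All 3 also passed without zygote replicate 1.

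By kind of row, coding genes leaned lower, with 160 higher (1.7%) and 327 lower (3.47%) of 9430, against 2.48% and 2.92% of all rows. Annotated long noncoding RNAs gave 26 higher (3.27%) and 9 lower (1.13%) of 795, and pseudogenes 23 (3.1%) and 13 (1.75%) of 742. Loci named XLOC, which carry no position or gene name, gave 68 (3.68%) and 34 (1.84%) of 1850. Of these 68, 30 entered through zygotes alone, and 17 of the 34 entered through MII oocytes alone. Without rows that entered through 1 stage alone, 2.24% of XLOC loci were higher and 1% lower. This compares with 1.99% and 2.65% of all such rows. With the tag as a batch term the noncoding kinds leaned lower, at 11 higher and 21 lower for long noncoding RNAs, 20 and 44 for pseudogenes and 56 and 99 for XLOC loci. XLOC_000034 entered through zygotes alone, as it was listed at 0 in both MII libraries and had 20.4 and 20.7 FPKM in zygotes. XLOC_000547 had 2.87 and 2.55 FPKM in zygotes, against 20.1 and 21.6 FPKM in MII oocytes (-2.74 ± 0.20, adjusted p = 0.00013).

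Other columns of the table place the fallers in time, as levels with no test, since they share the zygote column or come from other crosses. The summed level of the 86 ribosomal protein rows was 4170 and 3508 FPKM in MII oocytes, 2734 and 2725 FPKM in zygotes, and 1045 and 1011 FPKM in E2-cell (early 2-cell) embryos, and reached 31890 and 32776 FPKM at the 8-cell stage. In a separate time course labelled BDF1 it was 1887 and 1997 FPKM at 14 hours after fertilization, 1757 and 1676 FPKM at 17 hours and 1731 and 1797 FPKM at 20 hours. Plat averaged 105 ± 8.85 FPKM at 14 hours, 72.9 ± 0.0488 FPKM at 17 hours and 60.9 ± 1.61 FPKM at 20 hours (SD, n = 2 each), and 37.5 ± 2.87 FPKM in E2-cell embryos. Low levels were also found in these separate libraries for single genes: Ndufa9 averaged 5.51, 3.7 and 3.95 FPKM at the 3 times, and March7 3.8, 2.44 and 1.89 FPKM. Cpne1 did not, with 15, 11.6 and 12.1 FPKM at the 3 times, against 1.79 and 1.44 FPKM in the zygote libraries and 10.4 and 10.3 FPKM in MII oocytes.

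**Figure D5:**
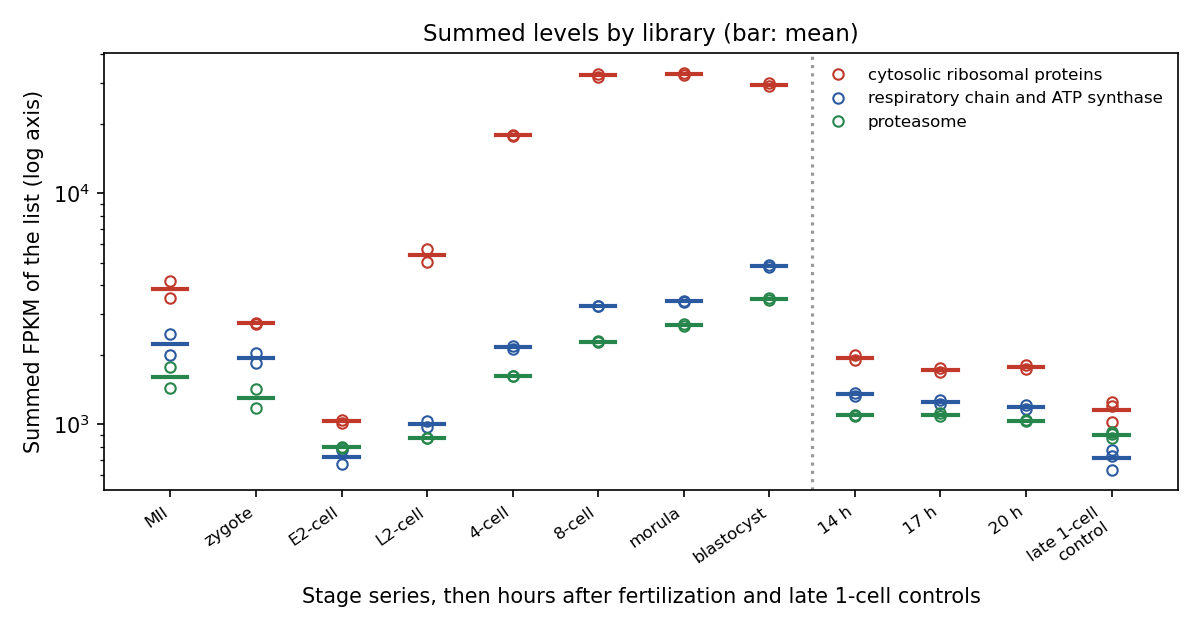
Summed FPKM on a log axis of 3 gene lists in each library of the stage series, MII to blastocyst. To the right of the dotted line are the 14, 17 and 20 hour samples and the 3 late 1-cell controls of an MT2Mm knockout experiment. Open circles are libraries and bars their means. Ribosomal protein genes are lowest at the E2-cell stage in the stage series and highest from the 8-cell stage on.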

How the data were processed

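Mouse total RNA from zygotes and MII oocytes was compared in the table the authors deposited, whose values are FPKM; the denominator and filters behind them are not stated. Per the submitters' processing notes, cutadapt 1.18, HISAT2 2.1.0, Cufflinks, StringTie 1.3.4d, Cuffdiff 2.2.1 and build GRCm38 were used, with no role or order given. Per the labels' protocols, libraries were made with a TruSeq Stranded kit or a SMARTer Stranded kit meant for low input; the kit of each sample is not stated. Columns were matched to samples by name, and 18 sample columns of other experiments were not used.

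Rows were annotated by Ensembl identifier from GENCODE M21 (54409 of 54446 found). Rows with at least 1 FPKM in 2 of the 16 stage columns were fitted on log2(FPKM + 0.5) with limma 3.58.1 (eBayes with a trend, two-sided, R 4.3.3) and p-values were adjusted by Benjamini-Hochberg over all 19692 rows. Python 3.11.15 with NumPy 2.4.6, pandas 2.3.3 and Matplotlib 3.10.9 served for tables and plots. The fit was tested on simulated data. Other settings tried were a pseudocount of 0.1 or 1 FPKM, no filter, a filter on the 4 columns, 2 scalings, a replicate block, the 4 columns alone, the tag as a batch term and each library left out.

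The members and 27 gene lists were chosen with earlier results of these data known. Named genes are up to 4 per list, called ones first; the 10 largest rises and falls among called rows with at least 5 FPKM in the higher stage, no overlap and a call with the tag as a batch term; 6 each way without the tag condition; 3 XLOC loci each way; and the 5 rows with the highest mean. Not all are printed. Cphx, Tcl1 family and marker genes outside this rule, ribosomal protein genes beyond the first 4 and the snoRNA host pairs were chosen after their values were seen. Counts without rows that entered through 1 stage alone were also chosen after seeing the data. Host genes enclose the small RNA on the same strand.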

Additional observations from a re-analysis of the deposited data

How the results depend on the processing

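Of 708 rows called, 325 higher and 383 lower, a pseudocount of 0.1 FPKM left 384 (142 higher, 242 lower) and one of 1 FPKM gave 997 (505 higher). No filter gave 494, a filter on the 4 columns 991 and scaling to the protein-coding sum 672. Of the calls, 45.9% were higher, and 59.5% with scaling by the median of ratios. The tag as a batch term gave 644 lower rows. The 4 columns alone called 0 rows in every count (rows, ribosomal protein, respiratory chain, small RNA); the other fits borrow the spread from 12 columns of later stages. Leaving out single libraries gave 374 to 4743 rows, 169 to 1876 higher and 176 to 2867 lower. Ribosomal protein genes called lower ranged over 11 to 48 (32 with all libraries), respiratory chain genes over 7 to 28 (15), and small RNA rows called higher over 19 to 96 (45), with 25 under no filter. The cause was not tested. Replicate numbers did not pair the samples (correlation of deviations from the stage means between equal numbers -0.0941). The replicate block gave 1522 rows (685 higher, 837 lower) and 40 ribosomal protein genes. Of 93 named genes that were called, 93 remained under the block, a pseudocount of 1 FPKM, the 4-column filter and without zygote replicate 2, 66 with the tag as a batch term, 60 without zygote replicate 1, 48 without MII replicate 1 and 0 in the 4 columns alone; none changed sign. With n = 2 and depth unknown, differences in rows near 1 FPKM rest on few fragments.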

Other observations

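A set of the risers had the same peak in the time course. Of the 325 rows called higher in zygotes, 13 (4%) had a mean at 17 hours after fertilization at least 2-fold above both the 14 hour and the 20 hour mean, on FPKM + 0.5, against 30 of all 13131 rows (0.228%) and 1 of the 383 rows called lower (0.261%). The zygote and MII libraries are not part of the time course, which is labelled BDF1. This count was chosen after the values were seen and was not tested. The 13 rows are Cphx1, Cphx2, Cphx3, Gm15446, Gm46426, Gm47180, 2410141K09Rik, Lrmda, Gm23297, Gm25492, Gm25788, XLOC_010792 and the mitochondrial transfer RNA mt-Tg. Among them Gm46426, 2410141K09Rik, Lrmda and Gm25492 entered through the zygote libraries alone, so they had to be higher there. The share of 4% was not counted without such rows. Cphx3, Gm23297, Gm25492 and Gm25788 lost their calls both with the tag as a batch term and without zygote replicate 1.

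Gm15446 averaged 1.27 ± 0.00919 FPKM at 14 hours, 15.7 ± 2.34 FPKM at 17 hours and 1.58 ± 0.0943 FPKM at 20 hours (SD, n = 2 each), and 16.1 ± 3.76 FPKM in zygotes, against 0.927 ± 0.127 FPKM in MII oocytes. Gm46426 averaged 0.133, 16.6 and 0.245 FPKM at the 3 times, 11.7 FPKM in zygotes and 0.0285 FPKM in MII oocytes. On the same chromosome and strand, 2410141K09Rik had 0.606, 4.56 and 0.93 FPKM at the 3 times, 4.36 FPKM in zygotes and 0.234 FPKM in MII oocytes. Lrmda was listed at 0 in both MII libraries and at 14 and 20 hours, with 1.33 ± 0.0433 FPKM at 17 hours and 2.08 and 2.07 FPKM in zygotes. Cphx1 had 26.7, 63.4 and 26.5 FPKM at the 3 times and Gm47180 23.4, 75 and 25.5 FPKM. In the 3 late 1-cell controls of the MT2Mm knockout experiment Gm15446 averaged 4.24 ± 0.721 FPKM and Cphx1 15.8 ± 0.773 FPKM.

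Rny1 had 40 and 40.6 FPKM in zygotes and 43.3 ± 16.7 FPKM in E2-cell embryos, but 1.6, 8.01 and 7.41 FPKM at 14, 17 and 20 hours and 4.86 ± 1.91 FPKM in the 3 late 1-cell controls, against 8.2 and 10.2 FPKM in MII oocytes. Snora64 had 0.53, 0.598 and 0.949 FPKM at the 3 times, 8.47 ± 3.48 FPKM in the 3 late 1-cell controls, 3.95 ± 2.44 FPKM in E2-cell embryos, and 9.96 and 10.4 FPKM in the zygote libraries, against 0.814 ± 0.648 FPKM in MII oocytes. XLOC_000034, at 20.4 and 20.7 FPKM in zygotes, averaged 5.6 ± 7.91 FPKM at 14 hours and was listed at 0 at 17 and 20 hours and in E2-cell embryos.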
